A study of Mus musculus with 8 samples.

Results

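Depletion of Tip60 was compared across all genes in mouse embryonic stem cells (ESCs) in which Hdac6 was already depleted, by setting the 2 arrays of the double knockdown (KD) of Tip60 and Hdac6 against the 2 arrays of the Hdac6 KD, 4 of the 8 arrays of the series. Members were chosen by title alone, and arrays of the same replicate letter (A or B) were paired because each letter was hybridised on a slide of its own. Every array held RNA of E14 ESCs, grown without feeder cells on gelatin with LIF and taken 72 h after lentiviral infection with short hairpin RNAs, 1 hairpin for each targeted gene. The Hdac6 KD received the hairpin against Hdac6, and the double KD received those against Tip60 and Hdac6. The other 4 arrays, a KD of Tip60 alone and a control KD with a hairpin against EGFP, enter as an estimate of the spread. In the last comparison they also enter as Tip60 loss without the hairpin against Hdac6, called Hdac6 intact below. The study's methods call its array samples biological replicates without saying whether the letters were separate infections, and whether the Hdac6 KD received a second, non-targeting virus is not given in the sources used here.

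Tip60, encoded by Kat5, is the acetyltransferase of the Tip60-p400 complex, which acetylates histones H2A and H4 and, through the p400 ATPase, exchanges histone H2A for its variant H2A.Z. In ESCs the complex is known for holding down developmental genes while keeping proliferation genes active. Hdac6 is a class II deacetylase best known for deacetylating tubulin in the cytoplasm, and the study asked how far gene regulation by Tip60-p400 in ESCs depends on it. The double KD and the Hdac6 KD differ in the hairpin against Tip60, on a background in which both received the one against Hdac6.

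Labelled copies of each RNA were hybridised to 43020 gene spots. A level is given throughout as the log2 of the background-corrected signal over the array's 75th percentile, so that 0 is a fairly bright gene and -2.71 is a floor below which values were not ordered, and a difference is the double KD minus the Hdac6 KD on this log2 scale. Levels are compared for one gene between arrays and not between genes. A gene was called when its adjusted p from limma was under 0.1, the level used in the study. Between 27645 and 40276 spots stood well above background on the compared arrays, the lowest number on Hdac6 KD array B, from which the scanner software had subtracted a median background of 86.9 units against 37.7 to 41.4 on the other 3. Some results are therefore also given for letter A, where the subtracted backgrounds were alike. A group lay at the same position on both slides, so group and position cannot be told apart. All 10 ESC markers were above background on the compared arrays, with a summed level of 333 to 335 with the Hdac6 KD and 348 to 366 with the double KD, in units of the array's 75th percentile.

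The targeted genes were read first. Kat5, on chromosome 19 at 5603017-5603076 (mm9, minus strand), had levels of 1.52 and 1.53 with the Hdac6 KD and -0.11 and 0.20 with the double KD, a fall of 1.48 (SE 0.091, adjusted p = 0.00157), so that the double KD retained 40.4% of the control signal. Its second probe lies at chr19:5603418-5603477 and is shown because it reads the transcript up to the stop codon, in capitals:

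Kat5 probe: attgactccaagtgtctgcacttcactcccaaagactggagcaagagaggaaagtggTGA

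This second probe had a difference of -1.75 (adjusted p = 0.000582). Hdac6, on chromosome X at 7507261-7507320 (minus strand), had levels of -0.28 and -0.32 with the Hdac6 KD and 0.30 and 0.34 with the double KD. It was thus higher in the double KD than in the Hdac6 KD on both slides, by 0.62 (SE 0.055, adjusted p = 0.00331), and its second probe, which overlaps the first, differed by 0.61 (adjusted p = 0.0100). Measured against the control arrays, the Hdac6 signal was 17.8% with the Hdac6 KD, 27.3% with the double KD and 73.9% with the Tip60 KD alone. Tip60 loss and the less complete loss of Hdac6 RNA in the double KD cannot be told apart in any difference given here.

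Of 18112 genes tested, 5326 were called (29.4%), 2730 of them higher in the double KD (15.1%) and 2596 lower (14.3%). The median difference over all genes was 0.003 and the median size of a called difference was 0.34, so most calls were small. A change of at least 2-fold was called for 153 genes, 135 higher and 18 lower. Across genes, the differences of letters A and B correlated at r = 0.661, and at 0.750 over the 15228 genes above the floor on all 4 arrays. Without the pairing of letters the same 8 arrays gave 1828 calls, and with the 4 compared arrays alone and no pairing none at adjusted p under 0.1, although 3129 genes had an unadjusted p under 0.05. Leaving out Hdac6 KD array A, Hdac6 KD array B, double KD array A or double KD array B left 2499, 1890, 3048 and 3160 calls. With arrays centred on their median in place of the 75th percentile, 5017 genes were called and 1448 of them were higher (28.9% against 51.3%), so the even balance of small rises and falls rests on the scaling, which moved the median of all genes to -0.080.

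**Figure D1:**
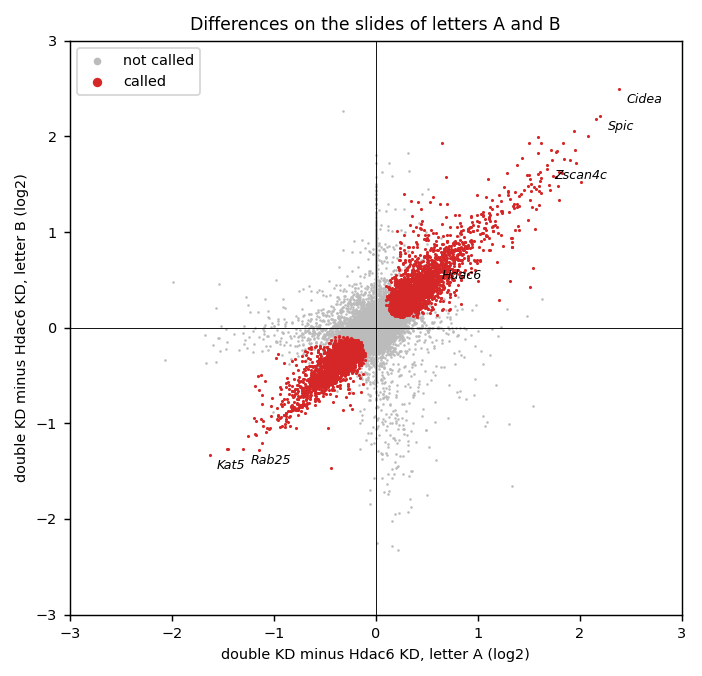
Difference between the double KD and the Hdac6 KD for each gene on the slide of letter A (x axis, log2) and on that of letter B (y axis, log2). Red points are the 5326 called genes and grey points the others; among the called genes Cidea and Spic lie farthest up and Kat5 farthest to the left, and grey points stretched along the vertical axis are genes that differed on letter B only.

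The largest rises included a family of genes known from the 2-cell embryo. Zscan4 genes encode zinc finger proteins that are active in 2-cell embryos and in the rare ESCs that pass through a similar state. Zscan4a had levels of -0.86 and -0.89 with the Hdac6 KD and 0.97 and 1.04 with the double KD, a 3.69-fold rise (difference 1.88, SE 0.11, adjusted p = 0.00150). Zscan4f stood at 0.19 and 0.04 with the Hdac6 KD and 1.99 and 1.66 with the double KD and rose 3.28-fold, Zscan4b at 0.04 and -0.08 with the Hdac6 KD and 1.63 and 1.75 with the double KD with a rise of 3.27-fold, and Zscan4c at -0.51 and -0.45 with the Hdac6 KD and 1.17 and 1.26 with the double KD with a rise of 3.24-fold. On the brightest probes of all 4 the double KD arrays lay above both Hdac6 KD arrays. The differences of letters A and B stayed within 1.59 to 1.93. These genes were chosen for large changes alike on both letters, so this separation follows from the choice. Further probes of Zscan4c differed by less, 1.13 and 1.24, and a further probe of Zscan4a by 1.79. The probes of Zscan4a and Zscan4c share 56 of 58 aligned bases, so their values are not independent measurements. The other pairs of probes share at most 26 aligned bases. No probe was compared with the transcripts of the other copies, so whether each reads 1 copy alone was not tested.

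The copies lie in a tandem cluster on chromosome 7, and the promoters of 4 copies in RefSeq are shown because they share long stretches of sequence before their starts. They are those of Zscan4b, Zscan4c and Zscan4f, which rose, and of Zscan4d, for which no level is given here, each from 250 bases before to 50 after the transcript start (build GRCm38.p6), for Zscan4b at chr7:10905001-10905300 (minus strand), Zscan4c at chr7:11005495-11005794 (plus), Zscan4d at chr7:11166099-11166398 (minus) and Zscan4f at chr7:11397665-11397964 (plus). Capitals mark the longest run of bases, 55 in all, that these promoters have in common.
Zscan4b: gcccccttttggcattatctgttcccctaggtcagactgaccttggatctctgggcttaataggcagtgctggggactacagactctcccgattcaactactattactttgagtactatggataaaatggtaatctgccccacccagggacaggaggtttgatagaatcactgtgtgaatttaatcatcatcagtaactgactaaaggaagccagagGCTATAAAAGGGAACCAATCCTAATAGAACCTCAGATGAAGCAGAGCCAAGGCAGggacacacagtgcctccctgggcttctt
Zscan4c: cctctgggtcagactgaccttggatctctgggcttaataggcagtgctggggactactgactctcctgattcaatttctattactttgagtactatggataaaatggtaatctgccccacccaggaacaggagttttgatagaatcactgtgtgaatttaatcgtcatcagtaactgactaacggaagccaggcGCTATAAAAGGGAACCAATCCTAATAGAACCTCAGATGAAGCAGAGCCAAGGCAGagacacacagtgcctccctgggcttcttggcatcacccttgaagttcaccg
Zscan4d: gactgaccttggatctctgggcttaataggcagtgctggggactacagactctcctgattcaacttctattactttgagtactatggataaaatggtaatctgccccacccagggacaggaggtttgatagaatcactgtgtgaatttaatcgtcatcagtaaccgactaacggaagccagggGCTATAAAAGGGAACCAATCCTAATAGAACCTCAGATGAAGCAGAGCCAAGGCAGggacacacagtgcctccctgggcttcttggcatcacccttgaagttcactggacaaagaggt
Zscan4f: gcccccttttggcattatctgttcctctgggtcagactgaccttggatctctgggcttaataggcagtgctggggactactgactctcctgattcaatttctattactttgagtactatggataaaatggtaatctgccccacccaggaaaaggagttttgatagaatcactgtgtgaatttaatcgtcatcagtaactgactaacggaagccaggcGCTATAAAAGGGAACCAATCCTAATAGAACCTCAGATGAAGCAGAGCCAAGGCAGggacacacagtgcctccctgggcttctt
The shared run opens with a TATAAA box, and it was found in none of the other promoters among the 32851 of the table. Aligned without gaps, pairs of these promoters were 95.3% to 99.3% identical. TATAAA was present on either strand in 15.7% of all genes with a promoter in the table, and in 10.5% of the genes called higher, 7.99% of those called lower and 11.2% of those not called.

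The wider list of 2-cell stage genes followed in part. Of 15 genes of that list tested, 8 rose and 1 fell, and the list's median difference was 0.38 against 0.003 over all genes, the highest of the 38 lists, though below that of the fibroblast markers kept apart from them (0.50). The list names 23 genes in all, and its median was 0.0037 with no filter on dim probes and 1.06 with a lower floor. Of the 15 tested, 60% were called against 29.4% of all genes. Beside Zscan4f and Zscan4c, the members that rose were Gm4340 (0.50 and 0.13 with the Hdac6 KD and 2.45 and 2.19 with the double KD, difference 2.00), Gm2022 (1.63), Gm8300 (1.62), Calcoco2 (-0.01 and -0.26 with the Hdac6 KD and 1.50 and 1.29 with the double KD, difference 1.53), Pramel16 (0.54) and Usp17ld (0.38). Calcoco2 encodes an autophagy receptor and belongs to the autophagy list too, and Pramel16 was at the floor on both Hdac6 KD arrays, so that its rise is at least 1.45-fold. Several of these genes have close copies, so a probe may read more than the gene it is named for. Zfp809, a zinc finger repressor of retroviruses, was the member that fell, from 0.28 and 0.07 to -0.31 and -0.56 (difference -0.61).

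The other large rises came from genes of several functions. Cidea, a protein of lipid droplets, rose most, from -2.26 and -2.65 on the Hdac6 KD arrays to 0.13 and -0.16 on the double KD arrays, a 5.44-fold difference (log2 2.44, SE 0.065, adjusted p = 0.000678). Spic, an ETS-family transcription factor of red pulp macrophages, had levels of -2.32 and -2.38 with the Hdac6 KD and -0.12 and -0.16 with the double KD (4.63-fold). Ltb, the membrane anchor of lymphotoxin, had levels of -2.03 and -2.19 with the Hdac6 KD and -0.08 and -0.33 with the double KD (3.75-fold), and Slc11a1, a divalent metal transporter of phagosomes, -1.47 and -1.54 with the Hdac6 KD and 0.43 and 0.21 with the double KD (3.55-fold). Each of these genes was chosen by the size of its difference, and its lowest double KD array was more than 1 log2 unit above its highest Hdac6 KD array. Of the 6 macrophage and blood markers tested, none was called by limma and none had an unadjusted p under 0.05, and the summed level of that list of 8 was 3.19 to 4.03 with the Hdac6 KD and 3.34 to 3.76 with the double KD.

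Vax2, a homeobox gene of the ventral eye, rose from -1.74 and -2.20 to -0.15 and -0.21 (3.46-fold), and Vax2os, its antisense neighbour at the same locus on chromosome 6, rose from -0.61 and -0.49 to 1.12 and 1.09 (3.16-fold). Spink1, a secreted trypsin inhibitor, had levels of -0.05 and -0.23 with the Hdac6 KD and 1.63 and 1.43 with the double KD (3.18-fold). Platr26, a noncoding RNA first named for its association with pluripotent cells, had levels of -0.57 and -0.67 with the Hdac6 KD and 1.19 and 0.90 with the double KD (3.18-fold). Including the Zscan4 copies, these were the 12 largest called rises above the floor on all 4 arrays with a RefSeq gene name that is not a predicted one. Predicted names such as Gm4340 were left out. Adjusted p was between 0.000678 and 0.00476.

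Falls were smaller than rises at the top of the list. Ccng1, a cyclin G induced by p53, fell most beside Kat5, from 3.23 and 3.25 to 1.77 and 1.99, which is 2.57-fold (difference -1.36, SE 0.076, adjusted p = 0.00139). Hmga2, an architectural chromatin protein of growing embryonic cells, had levels of 1.40 and 1.29 with the Hdac6 KD and -0.05 and 0.02 with the double KD and was 2.56-fold lower in the double KD. Rab25, a small GTPase of epithelial recycling endosomes, had levels of 0.22 and 0.22 with the Hdac6 KD and -1.08 and -1.05 with the double KD (2.44-fold lower). Both genes, likewise chosen by size, were separated by more than 1 log2 unit between the groups on each slide. A further probe of Hmga2 differed by -1.17.

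The remaining large falls were between 2.08-fold and 2.24-fold on the brightest probe of each gene. They included 2 ubiquitin-specific proteases, Usp25 (-0.44 and -0.55 with the Hdac6 KD and -1.56 and -1.76 with the double KD) and Usp51 (-0.60 and -0.89 with the Hdac6 KD and -1.71 and -1.92 with the double KD), the latter a deubiquitinase of histone H2A. Bspry, an epithelial B-box and SPRY domain protein, stood at 0.35 and 0.50 with the Hdac6 KD and -0.82 and -0.63 with the double KD, and Purb, a single-strand DNA-binding repressor, at 1.44 and 1.52 with the Hdac6 KD and 0.26 and 0.41 with the double KD. Gstt2, a glutathione transferase, had levels of -0.25 and -0.15 with the Hdac6 KD and -1.33 and -1.23 with the double KD. Wdr34, a dynein intermediate chain of cilia, had levels of 2.80 and 2.60 with the Hdac6 KD and 1.61 and 1.65 with the double KD, and Hpdl, a dioxygenase-like mitochondrial protein, 0.70 and 0.54 with the Hdac6 KD and -0.36 and -0.52 with the double KD. Timm8a1, which helps import proteins into mitochondria, stood at 3.97 and 3.98 with the Hdac6 KD and 2.92 and 2.92 with the double KD. A further Timm8a1 probe fell less (difference -0.71). Further probes of Purb differed by -0.82 and -1.17, and those of Usp25 and Usp51 by -1.28 and -1.10. The genes were chosen for large called changes alike on both letters, so the lack of overlap between their groups follows from the choice. Adjusted p ranged from 0.00123 to 0.00328 over the 11 largest falls.

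**Figure D2:**
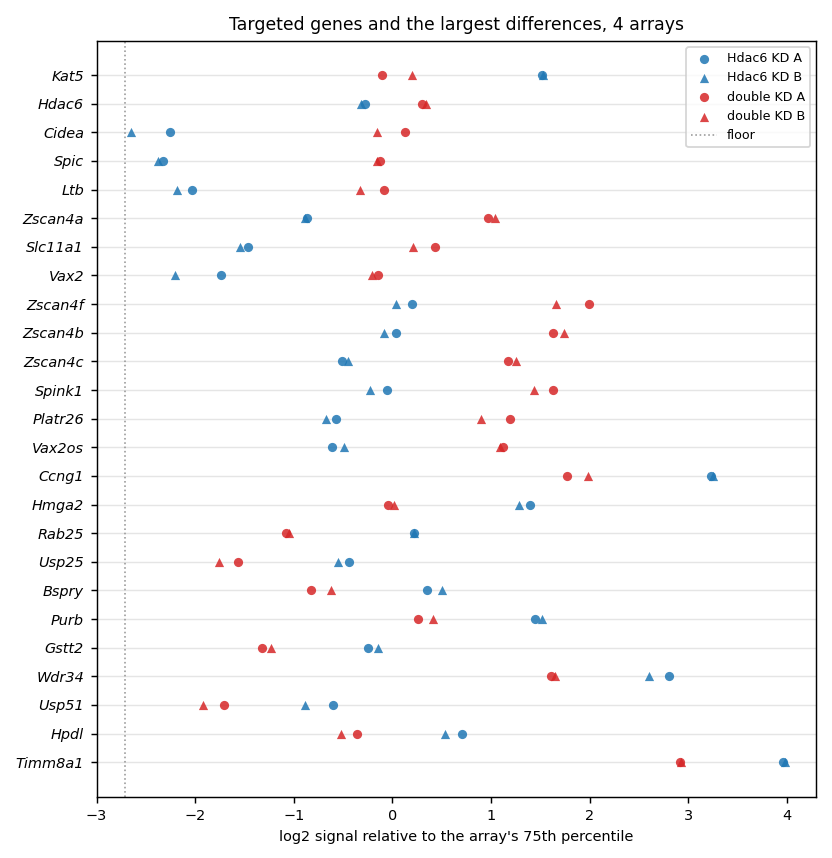
Level of the targeted genes, the 12 largest rises and the 11 largest falls on the 4 arrays compared (x axis, log2 signal relative to the array's 75th percentile; circles letter A, triangles letter B; blue Hdac6 KD, red double KD; dotted line, the floor). Blue and red do not overlap for any gene, which for the rises and falls follows from their choice by size. The symbols of one colour lie close together. Cidea on Hdac6 KD array B lies near the floor.

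The complex that holds Tip60 was described next. Of 18 Tip60-p400 subunits tested, 7 rose and Kat5 alone fell, with a median difference of 0.11 (44.4% called against 29.4% of all genes). With median scaling 4 rose and 3 fell. The rises were small. Vps72, the chaperone of H2A.Z, had levels of -1.86 and -2.08 with the Hdac6 KD and -1.49 and -1.56 with the double KD (difference 0.44, adjusted p = 0.0122). Trrap, the scaffold that contacts transcription activators, had levels of 1.96 and 1.70 with the Hdac6 KD and 2.37 and 2.05 with the double KD (0.38, adjusted p = 0.0103). Meaf6 (0.42), Epc1 (0.35), Dmap1 (0.31), Actl6a (0.22) and Morf4l1 (0.15) rose too, Actl6a with an adjusted p of 0.0999, just under the threshold. The p400 subunit Ep400 differed by 0.19 (adjusted p = 0.239), and the helicases Ruvbl1 and Ruvbl2 by 0.030 and -0.081 (adjusted p = 0.775 and 0.536). Differences of Ing3 (0.13), Mrgbp (0.094), Yeats4 (-0.082), Mbtd1 (-0.10), Morf4l2 (-0.12), Brd8 (-0.14) and Epc2 (-0.19) did not pass the test.

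The list of histone variants and their chaperones includes the genes of H2A.Z, which this complex places in chromatin. Of 10 genes tested, 5 fell and 1 rose (median -0.24), 60% called against 29.4% of all genes. Macroh2a1, whose product is enriched on the inactive X chromosome, fell from 1.22 and 1.30 to 0.63 and 0.70 (difference -0.59, adjusted p = 0.00458), and Macroh2a2 fell by 0.21. Anp32e, the chaperone that removes H2A.Z from chromatin, had levels of 0.57 and 0.26 with the Hdac6 KD and 0.22 and -0.12 with the double KD (-0.36). Cenpa, the histone H3 of centromeres, and H3f3b, which encodes H3.3, fell by 0.32 and 0.28. H2az2, which encodes one form of H2A.Z itself, rose by 0.16, and with median scaling 7 of the list fell and none rose.

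Among 16 deacetylases, 3 rose, of which Hdac6 was one by 0.62, with Hdac7 (0.38) and Sirt1 (0.35), and Sirt6 fell by 0.21, so 25% were called against 29.4% of all genes, whereas median scaling gave 1 rise and 3 falls. Of 28 polycomb and DNA methylation genes, 9 rose and 6 fell (53.6% called), and with median scaling 3 rose and 8 fell. Among the enzymes of DNA methylation and its removal, Tet2, a 5-methylcytosine dioxygenase, rose from 1.69 and 1.49 to 2.63 and 2.36 (difference 0.91, adjusted p = 0.00332), while the de novo methyltransferase Dnmt3a fell from -0.31 and -0.60 to -1.14 and -1.43 (-0.83, adjusted p = 0.00804) and Dnmt3b and the maintenance enzyme Dnmt1 fell by 0.36 and 0.16. Dnmt3l, Tet1 and Tet3 differed by -0.17, -0.065 and 0.023 and did not pass the test. In the polycomb repressive complexes, Suz12 (0.59) and Phc1 (0.52) rose and the methyltransferase Ezh2 fell (-0.38).

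Genes of cell division were called in 1 direction. Of 30 G2 and mitosis genes tested, 15 fell and none rose by limma's test (none at an unadjusted p under 0.05 either), at a median difference of -0.23 (-0.22 on letter A and -0.23 on letter B). That is 50% called against 29.4% of all genes. Mki67, the Ki-67 antigen of cycling cells, had levels of 3.59 and 3.42 with the Hdac6 KD and 3.08 and 2.86 with the double KD (difference -0.54, adjusted p = 0.00712). Nusap1, a spindle protein, had levels of 2.54 and 2.47 with the Hdac6 KD and 2.03 and 1.91 with the double KD (-0.54, adjusted p = 0.00510), and Ube2c, the ubiquitin-conjugating enzyme of the anaphase-promoting complex, 3.10 and 3.02 with the Hdac6 KD and 2.62 and 2.55 with the double KD (-0.48). Kif23 (-0.47), Nek2 (-0.46) and Ttk (-0.37), which act in cytokinesis, centrosome separation and the spindle checkpoint, fell as well. Plk1, the mitotic polo-like kinase, fell by 0.36 (adjusted p = 0.0213), and the mitotic cyclin Ccnb1 fell by 0.23 (adjusted p = 0.0595).

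Of 34 genes of G1 and S phase, 3 rose and 9 fell, 35.3% called against 29.4% of all genes. The D-type cyclins diverged. Ccnd2 rose from -1.54 and -1.66 to -0.44 and -0.50 (difference 1.13, adjusted p = 0.00123) and Ccnd3 rose by 0.37, while Ccnd1 fell from -0.27 and -0.27 to -0.93 and -0.81 (-0.60, adjusted p = 0.0102). Their partner kinase Cdk4 fell by 0.43, the replicative helicase subunit Mcm4 by 0.46 and the pocket protein Rbl1 by 0.52. Myc, the transcription factor that drives growth, rose from 2.35 and 2.16 to 3.52 and 3.23 (difference 1.12, adjusted p = 0.00154). Its relatives Mycl and Mycn differed by 0.33 and -0.25. In all, 3 of the 11 Myc network genes rose and 1 fell (36.4% called against 29.4% of all genes). Of 32 ribosome biogenesis genes, 2 rose and 5 fell, 21.9% called against 29.4% of all genes.

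Genes induced by p53 fell more often than they rose. Of 25 such targets, 8 fell and 3 rose (median -0.12), 44% called against 29.4% of all genes. Beside Ccng1, Zmat3, an RNA-binding zinc finger protein, fell from 1.90 and 1.64 to 1.34 and 1.07 (difference -0.56, adjusted p = 0.00481), and Eda2r, a receptor of the tumour necrosis factor family, dropped to the floor on both double KD arrays, at least 1.49-fold lower. Btg2, Perp and Gadd45a fell by 0.44, 0.39 and 0.32. Sesn1, a sestrin that restrains growth signalling, rose from 0.04 and -0.16 to 0.76 and 0.52 (0.70). The best-known members were not called: Cdkn1a differed by -0.090 (adjusted p = 0.297) and Mdm2 by -0.057 (adjusted p = 0.560). Of 25 apoptosis regulators, 8 fell, among them Bid (-0.55) and Bok (-0.53), and 3 rose (44% called).

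Glutathione and oxidant defence genes had the lowest median of all 38 lists, -0.26. Of 28 tested, 16 fell and 5 rose, so 75% were called against 29.4% of all genes. Srxn1, the sulfiredoxin that repairs peroxiredoxins, had levels of 2.05 and 1.93 with the Hdac6 KD and 1.13 and 0.90 with the double KD (difference -0.97, adjusted p = 0.00149). Gstp1, a glutathione transferase, had levels of 3.73 and 3.63 with the Hdac6 KD and 3.05 and 2.83 with the double KD (-0.74, adjusted p = 0.00261), and Gclc, the catalytic subunit that makes glutathione, 1.75 and 1.57 with the Hdac6 KD and 1.27 and 1.04 with the double KD (-0.51, adjusted p = 0.00514). The transcription factor Nfe2l2 (Nrf2), which drives many of these genes, fell by 0.33 (adjusted p = 0.0127), and its inhibitor Keap1 fell by 0.39. Gsto1, an omega class transferase, fell by 0.49. Gsta3, another glutathione transferase, went against the list and rose from 0.74 and 0.68 to 1.89 and 1.55 (1.01, adjusted p = 0.00346). Gstm1, which fell by 0.55, belongs to a class of transferases with similar sequences, so its probe may read its relatives as well.

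Metabolic lists had medians near 0, between -0.058 and 0.092. The list of amino acid stress genes driven by Atf4 holds enzymes of serine synthesis, of which Phgdh, the first of the pathway, had levels of 3.39 and 3.39 with the Hdac6 KD and 2.54 and 2.51 with the double KD (difference -0.86, adjusted p = 0.00683), and Psat1, the next, 4.27 and 4.05 with the Hdac6 KD and 3.85 and 3.61 with the double KD (-0.43). Atf4 itself rose from 3.45 and 3.59 to 4.04 and 4.07 (0.54, adjusted p = 0.0127), and Chac1 and Asns rose by 0.50 and 0.22. In all, 3 of 23 genes of that list rose and 5 fell (34.8% called against 29.4% of all genes). Of 31 oxidative phosphorylation subunits, 6 rose, led by Cox7a2 (0.29), Ndufb3 (0.29) and Cox5a (0.27), and Cox5b fell by 0.21 (22.6% called against 29.4% of all genes), but with median scaling 1 rose and 3 fell. Among 22 glycolysis genes, 4 fell, including the pyruvate dehydrogenase kinase Pdk1 (-0.82), and the regulator Pfkfb3 rose (0.38), 22.7% called in all. Of 26 sterol and fatty acid genes, 7 rose, including the regulator Insig1 (0.47), while Idi1 fell (-0.72) and so did Acaca (-0.25). This made 34.6% called against 29.4% of all genes.

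**Figure D3:**
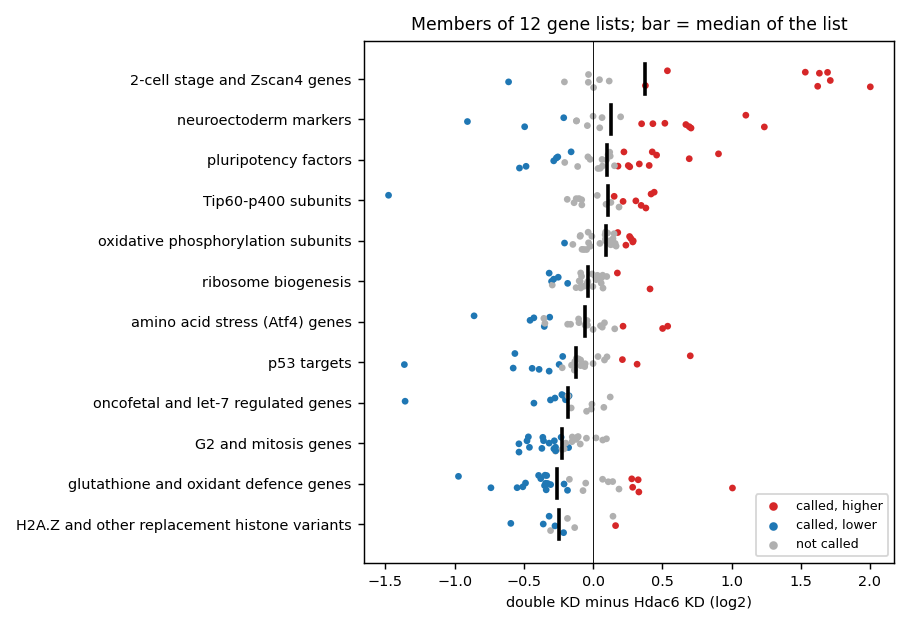
Difference between the double KD and the Hdac6 KD (x axis, log2) for every tested member of 12 gene lists (rows), red where called higher, blue where called lower and grey where not called, with a black bar at the list's median. All called G2 and mitosis genes lie to the left of 0, and the 2-cell stage list has the points farthest to the right.

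These list counts depended on the compared arrays and on the pairing. Leaving out any of the 4 compared arrays lowered the number called in the G2 and mitosis, glutathione and oncofetal lists. Such a fit leaves 1 array in a group, so only medians are given for it. Without Hdac6 KD array A, Hdac6 KD array B, double KD array A or double KD array B, the G2 and mitosis median was -0.20, -0.24, -0.25 and -0.22. In the same order, the glutathione and oxidant defence median was -0.29, -0.25, -0.24 and -0.23, and the oncofetal median -0.16, -0.17, -0.21 and -0.16. Without the pairing the calls were 6 falls for G2 and mitosis genes and 9 falls and 1 rise for glutathione genes. Oncofetal genes then had 2 falls, and 2-cell stage genes 7 rises and 1 fall.

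Pluripotency factors were called in both directions, 10 of 29 higher and 6 lower (median 0.10), or 6 and 7 with median scaling. That is 55.2% called against 29.4% of all genes. Foxd3, a forkhead repressor that ESCs require, rose from 0.95 and 0.86 to 1.61 and 1.59 (difference 0.69, adjusted p = 0.00650). Nanog had levels of 2.73 and 2.73 with the Hdac6 KD and 3.03 and 3.09 with the double KD (0.33, adjusted p = 0.0249), and Dppa2, Tbx3 and Prdm14 rose by 0.46, 0.43 and 0.41. Pou5f1, the gene of Oct4, differed by 0.15 (adjusted p = 0.286). Sox2 fell by 0.28 (adjusted p = 0.0284) and the nuclear receptor Nr5a2 by 0.53. Lifr, a subunit of the LIF receptor, had levels of 2.44 and 2.19 with the Hdac6 KD and 1.96 and 1.70 with the double KD on its brightest probe (-0.48, adjusted p = 0.00470), but the mean of its probes differed by 0.20 (adjusted p = 0.0359). Of 14 genes of the later epiblast, 5 fell and 3 rose (57.1% called). Beside Dnmt3a, the falls were led by the tight junction gene Cldn6 (-0.92) and by Sox4 (-0.63), and the rises by Foxd3, Fgf15 (0.53) and Sox3 (0.50).

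Signalling genes that steer early lineages were called in both directions. Nodal, the TGF-beta family ligand, rose from 2.68 and 2.51 to 3.27 and 3.14 (difference 0.61, adjusted p = 0.00448), as did the co-receptor Cfc1, from -1.82 and -2.10 to -0.88 and -0.93 (1.05). The Nodal antagonist Lefty1 fell from 2.18 and 2.06 to 1.25 and 1.12 (-0.93, adjusted p = 0.00134), and Foxh1, the transcription factor through which Smads act, fell by 0.52. In all, 6 of 20 genes of this pathway rose and 4 fell (50% called). Of 21 FGF and ERK feedback genes, 6 fell and 2 rose, Myc being one of the latter (38.1% called against 29.4% of all genes). The falls were led by the feedback inhibitors Spry1 (2.16 and 1.97 with the Hdac6 KD and 1.40 and 1.31 with the double KD, difference -0.71) and Dusp4 (-0.52). In the Wnt list, 5 of 10 tested rose and 1 fell. The secreted Wnt antagonist Sfrp5 was at the floor on both Hdac6 KD arrays and at -1.35 and -1.42 in the double KD, at least 2.50-fold higher, and Sfrp1 rose by 0.74, while Sfrp2 fell by 0.30. Of 11 BMP and Id genes, 4 rose, including Id2 (0.66) and Id3 (0.36), and 2 fell, including the receptor Bmpr1a (-0.55). With median scaling, 3 rose and 2 fell in the Wnt list and 2 and 2 in the BMP list. These lists name 23 and 17 genes. With no filter on dim probes, 3 rose and 1 fell in the Wnt list and 2 and 1 in the BMP list. Both medians were then 0, against 0.23 and 0.13 with the filter. Of the tested genes, 60% and 54.5% were called, against 29.4% of all genes.

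Differentiation markers were read by germ layer. Of 18 neuroectoderm markers, 8 rose and 3 fell. Tubb3, the neuronal tubulin, rose from 0.05 and -0.17 to 1.19 and 1.17 (difference 1.24, adjusted p = 0.00291), and Nefl, the light neurofilament, from -1.21 and -1.28 to -0.14 and -0.14 (1.10, adjusted p = 0.00397). Stmn2, Nefh and Vim rose by 0.71, 0.69 and 0.67. Sox11, a neural progenitor factor, went the other way, from -1.52 and -2.01 to -2.64 and the floor (-0.91). Of 11 endoderm markers, 5 rose and 1 fell. Col4a1 and Col4a2, neighbouring genes of basement membrane collagen that share a promoter region, rose by 1.03 and 1.09, from -0.68 and -0.66 to 0.40 and 0.31 for the former. Of 7 mesoderm markers, 2 rose (28.6% against 29.4% of all genes), Snai1 by 0.84 and Eomes by 0.16, and with median scaling only 1 of them was called. Trophectoderm markers were divided, 6 of 13 higher, led by Tfap2a (0.66), and 4 lower, led by its relative Tfap2c (-0.73), and with median scaling 2 were higher and 4 lower. With no filter on dim probes the endoderm, mesoderm and trophectoderm medians were 0, against 0.12, 0.029 and 0.13 with the filter. The neuroectoderm median was 0.024 against 0.13. On letter A the endoderm median was 0, and on letter B 0.21. Shares called were 61.1% for neuroectoderm, 54.5% for endoderm and 76.9% for trophectoderm markers, against 29.4% of all genes.

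Markers of fibroblasts were read beside the collagen genes. Of 10 fibroblast and feeder cell markers, 5 passed the filter on dim probes and 3 of these rose: Col1a1, from the floor to -1.56 and -1.70 (at least 2.11-fold), Pdgfrb by 0.73 and Thy1 by 0.50. Their summed level was 3.06 to 3.18 with the Hdac6 KD and 4.01 to 4.31 with the double KD, and 3 to 5 of the 10 were above background on each compared array. With no filter on dim probes the median of the fibroblast list was 0, against 0.50 with it. Of the 5 tested, 60% were called against 29.4% of all genes. The cells were grown without feeders, and the part of other cell types in these results was not tested. In bulk RNA, more cells of a type and more RNA per cell cannot be told apart. Among 24 adhesion and matrix genes, 7 rose, including the fibronectin receptor subunit Itga5 (0.89) and Jam2 (0.81), and 8 fell, including the epithelial claudins Cldn7 (-0.82), Cldn3 (-0.47) and Cldn4 (-0.43), the adhesion molecule Epcam (-0.45) and E-cadherin, Cdh1 (-0.28), or 4 and 10 with median scaling. Of these 24 genes 62.5% were called, and their median was -0.054 on letter A and -0.15 on letter B.

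Of 17 actin and SRF target genes, 8 fell and 4 rose (median 0 on letter A and -0.11 on letter B). Actb, the gene of beta-actin often used as a reference, had levels of 6.43 and 6.59 with the Hdac6 KD and 5.86 and 5.85 with the double KD and fell by 0.65 (adjusted p = 0.00583). Ccn1 fell by 0.56 while its relative Ccn2 rose by 0.58. In the list of Hdac6 substrates and tubulins, 5 of 14 rose, with Tubb3 first and Tuba1a (0.42) next, and 3 fell, Tubb6 (-0.58), Tuba1c (-0.42) and Tuba4a (-0.41). Tubulin genes share long stretches of sequence, so their probes may share signal. Among 14 housekeeping genes, Tfrc rose by 0.64, Actb and B2m fell by 0.65 and 0.50, and the other 11 did not pass the test. Shares called were 70.6% for the actin list, 57.1% for the tubulin list and 21.4% for the housekeeping list, against 29.4% of all genes.

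Genes of the let-7 and oncofetal programme, expressed in embryos and silenced in adults, were called in 1 direction. Of 16 tested, 8 fell and none rose by limma's test, nor at an unadjusted p under 0.05 (median -0.18). Hmga2 led the list, followed by Dusp9 (-0.43), Nras (-0.31), Plagl2 (-0.28) and Arid3b (-0.23), and the mRNA-binding proteins Igf2bp3 and Igf2bp2 fell by 0.22 and 0.20. Lin28a, which blocks let-7 processing, differed by 0.12 (adjusted p = 0.259). Of 21 imprinted genes, 5 were higher and 7 lower, or 1 and 7 with median scaling. Phlda2 (-0.76) and Grb10 (-0.70), both growth-restraining, fell most and Cdkn1c, a cyclin-dependent kinase inhibitor, rose most (0.55). Germ cell genes were split, 5 of 22 higher, led by the RNA-binding protein gene Dazl (0.86) and the meiotic cohesin gene Smc1b (0.84), and 5 lower, led by Prdm1 (-0.72) and Sycp3 (-0.71). Shares called were 50% for oncofetal, 57.1% for imprinted and 45.5% for germ cell genes, against 29.4% of all genes.

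Immune and stress lists held calls in both directions. Of 12 interferon and dsRNA response genes tested, 4 rose, including Oas1a (0.93), a sensor of double-stranded RNA, and Dhx58 (0.87), and 3 fell, including Bst2 (-0.77) and Ifitm3 (-0.53). In antigen processing, 3 of 13 rose and 4 fell, the light chain gene B2m by 0.50 and the immunoproteasome subunit gene Psmb10 by 0.62. Among 20 heat shock genes, 4 rose and 4 fell, Hspb8 (-0.62) and Hsph1 (-0.60) the most (40% called against 29.4% of all genes). Of 27 autophagy and lysosome genes, 6 rose and 8 fell, the latter including the lysosomal protease Ctsl (-0.55), Gabarap (-0.45) and the autophagy receptor Sqstm1 (-0.38), or 3 and 10 with median scaling. The median of the autophagy list was 0.011 on letter A and -0.15 on letter B. Shares called were 58.3% for interferon, 53.8% for antigen processing and 51.9% for autophagy genes.

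The panel of genes that the study followed by RT-qPCR was read on the arrays as a list. It was chosen by the study on these samples, so its direction is not independent evidence. Of 22 tested, 8 rose and 5 fell (59.1% called against 29.4% of all genes). Beside Sfrp5, Nefl, Snai1, Nodal and Nanog, the rises were Jam2 (3.04 and 2.98 with the Hdac6 KD and 3.84 and 3.80 with the double KD), Zc3h6 (0.32) and Lamp2 (0.25). The falls were Sox11, Gstm3, Gpsm2 (0.94 and 0.86 with the Hdac6 KD and 0.15 and 0.03 with the double KD, difference -0.82), Scamp1 (-0.27) and Mal2, which was at the floor on both double KD arrays (at least 1.42-fold lower). Nes, the neural stem cell filament, differed by 0.20 (adjusted p = 0.219), Atp5g1 by 0.10, Akr1b8 by 0.069, Zc3h12c by -0.076, Slpi by -0.14 and Kdr by -0.15. The endoderm factors Gata4 and Sox17 differed by -0.063 and 0.037 (adjusted p = 0.912 and 0.837), and Lefty2 had an adjusted p of 1.

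The E-box CACGTG, which reads the same on both strands, was counted in the promoters of the genes called. Among tested genes with a promoter in the RefSeq table, 278 of 1752 genes called lower held it (15.9%), against 9.48% of 1952 called higher and 10.2% of 7715 not called, and 8.09% of all genes with a promoter in the table. Promoters of genes called lower also held more CG dinucleotides, with a median of 23 in the 300 bases against 20 and 19 for genes called higher and not called. The part of base composition in the motif counts was not tested. The table held a promoter for 11419 of the 18112 genes tested. A match describes these letters in this window and not a bound site.

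The last comparison set Tip60 loss in Hdac6-depleted cells beside Tip60 loss in cells with Hdac6 intact, that is Tip60 KD minus control KD, which uses none of the same arrays though it shares the slides. Intact means without the hairpin against Hdac6, as the Hdac6 signal with the Tip60 KD alone was 73.9% of control. The part of that lower signal in the comparison was not tested. Tip60 loss alone called 11019 genes (60.8%) against 5326 (29.4%), and its differences had an SD of 0.50 over all genes against 0.29. Of the 5326 genes called in the Hdac6-depleted cells, 2922 were called the same way by Tip60 loss alone (54.9% of the former and 26.5% of the latter) and 1206 the opposite way. Across genes the differences correlated at r = 0.331 (rho = 0.237), 0.328 within letter A, 0.287 within letter B, and 0.289 and 0.252 across letters. Of the genes changed at least 2-fold, 119 of 135 rises were called higher and 15 of 18 falls lower with Tip60 loss alone. The difference between both effects was tested directly as an interaction, which was called for 8523 genes (47.1%), 3380 of them among the 5326.

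Among the largest rises, 4 of 12 had a called interaction. Spic rose by 2.35 upon Tip60 KD alone and 2.21 in Hdac6-depleted cells (interaction -0.14, adjusted p = 0.210), with 95% limits of -0.34 to 0.054 for that difference. Zscan4a (1.77 and 1.88), Zscan4b (1.84 and 1.71), Zscan4c (1.81 and 1.69), Zscan4f (1.56 and 1.71), Vax2 (1.94 and 1.79), Vax2os (1.60 and 1.66) and Platr26 (1.60 and 1.67) gave no called interaction, which does not show that the effects were equal. Ltb, Slc11a1 and Spink1 rose less in Hdac6-depleted cells than with Hdac6 intact, with interactions of -0.42, -0.45 and -0.55. Cidea differed by 0.18 upon Tip60 KD alone, because its level was -0.04 and -0.24 on the control arrays and 0.18 and -0.10 on the Tip60 KD arrays, so the low values belonged to the Hdac6 KD arrays alone.

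Among the 11 largest falls, 6 had a called interaction. Hmga2 had levels of -1.37 and -1.39 on the control arrays and -0.94 and -1.03 on the Tip60 KD arrays, against 1.40 and 1.29 with the Hdac6 KD, so its fall in the double KD started from a raised level. The same held for Rab25 (control -0.70 and -0.59, Hdac6 KD 0.22 and 0.22), Purb (control 0.60 and 0.61, Hdac6 KD 1.44 and 1.52), Hpdl (control -0.38 and -0.40, Hdac6 KD 0.70 and 0.54) and Timm8a1 (control 3.40 and 3.37, Hdac6 KD 3.97 and 3.98). Ccng1 fell by 1.79 upon Tip60 KD alone and by 1.36 in Hdac6-depleted cells (interaction 0.42, adjusted p = 0.0296). Myc, which rose by 1.12 here, rose by 3.15 upon Tip60 KD alone (interaction -2.03, adjusted p = 0.00115), with levels of 0.34 and 0.26 on the control arrays and 3.57 and 3.33 on the Tip60 KD arrays. Kat5 itself had differences of -1.35 and -1.48 (interaction adjusted p = 0.480), and Usp25, Bspry, Gstt2, Wdr34 and Usp51 fell by 1.24, 1.04, 0.98, 0.81 and 1.25 upon Tip60 KD alone against -1.16, -1.15, -1.08, -1.07 and -1.07.

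**Figure D4:**
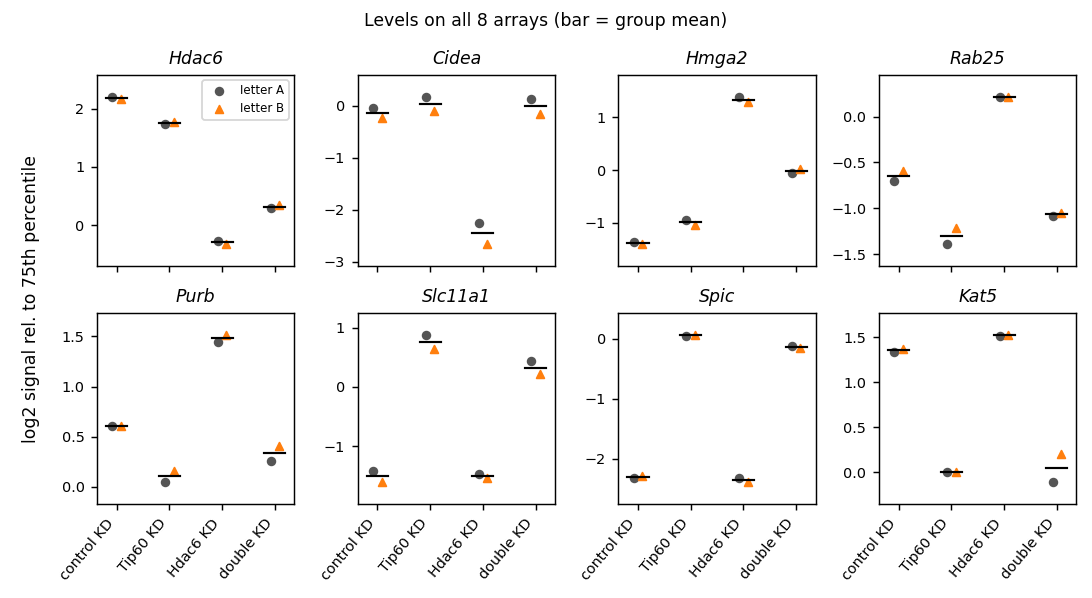
Levels of 8 genes on all 8 arrays (y axes, log2 signal relative to the array's 75th percentile, each with its own range; circles letter A, triangles letter B; bars, means of a group). Spic, Slc11a1 and Kat5 part by Tip60 KD whether or not Hdac6 is depleted, while in Cidea the Hdac6 KD arrays stand apart from the other 3 groups. In Hmga2 the Hdac6 KD arrays stand highest, and the double KD arrays lie between them and the control KD and Tip60 KD arrays.

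As groups, several lists differed in their calls between both settings, and those differences were not tested as lists. Over all genes, 33.1% were called higher and 27.7% lower upon Tip60 KD alone, against 15.1% and 14.3% in Hdac6-depleted cells, so calls were fewer over all genes too. G2 and mitosis genes fell in 23 of 30 upon Tip60 KD alone and in 15 in Hdac6-depleted cells. For p53 targets the numbers that fell were 18 and 8 of 25, and for amino acid stress genes 17 and 5 of 23. Ribosome biogenesis genes rose in 20 of 32 upon Tip60 KD alone and in 2 in Hdac6-depleted cells. Oxidative phosphorylation subunits fell in 18 of 31 and 1. Glutathione and oxidant defence genes went against this order, falling in 13 and 16 of 28, and oncofetal genes fell in 6 and 8 of 16. Upon Tip60 KD alone, however, 8 of the 16 oncofetal genes rose, against none in Hdac6-depleted cells. The median of that list was 0.18 upon Tip60 KD alone and -0.18 in Hdac6-depleted cells.

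**Figure D5:**
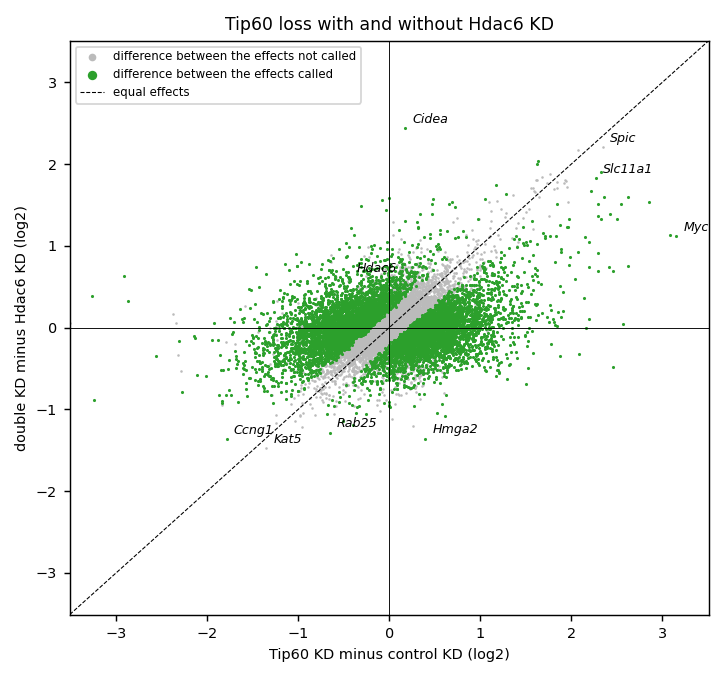
Each gene's difference upon Tip60 KD without the hairpin against Hdac6 (x axis, Tip60 KD minus control KD, log2) and with it (y axis, double KD minus Hdac6 KD, log2), green where the difference between both effects was called; the dashed line marks equal effects. Spic and Kat5 lie near the line, Cidea and Hmga2 far from it, and the cloud is wider along the x axis than along the y axis.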

How the data were processed

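RNA of 8 ESC samples was hybridised to Agilent 4x44K mouse arrays in 1 colour (Cy3). The deposited scanner files hold spot intensities from Agilent Feature Extraction 10.7.1.1 per the labels, and the deposited series matrix holds log2 values of the same arrays. The processing of the matrix is not stated. Quantile normalisation without background subtraction was inferred from the ranks and like distributions of its values. Probe positions are on mm9. From the scanner files, processed intensity was scaled to each array's 75th percentile, set to a floor of 0.153 of that percentile (the lowest signal well above background on the dimmest array) and log2 transformed. Probes well above background and floor on at least 2 arrays were kept, and a gene was read by its brightest probe, giving 18112 genes from 22594 probes. Symbols came from RefSeq where an accession matched (27324 of 39429 probes).

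limma 3.58.1 (R 4.3.3) was fitted to all 8 arrays with replicate letter as a block, which makes the difference the mean of those of letters A and B for the 17943 genes without a missing value. The Benjamini-Hochberg threshold was 0.1. Each letter is 1 slide, and the deviations of same-letter arrays correlated at 0.651 to 0.799. On simulated data for this comparison over 17943 genes, 66 of 67 genes changed by 2 log2 units, 56 of 67 changed by 1 and 34 of 66 changed by 0.5 were recovered, with 18 false calls. The simulation changed 200 genes and drew noise independently for each array and gene, whereas 5326 genes were called in the data. Its numbers therefore check the fit and do not measure the accuracy of the reported calls. The number of arrays limits the precision.

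Genes are named by a rule: the targeted genes, up to 12 largest changes each way that were above the floor on all 4 arrays, alike in direction on both letters and held by RefSeq under a name that is not a predicted one, up to 6 called members of each list or any member a sentence turns on, and all tested Tip60-p400 subunits and RT-qPCR panel genes. The members and lists were chosen with earlier results of these data known. Alternatives changed the background, floor, scaling, filter, probe summary, block, threshold and arrays. Some list members are not reported here.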

Additional observations from a re-analysis of the deposited data

Results flagged for a closer look

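The effect of Tip60 loss differed between Hdac6-depleted cells and cells with Hdac6 intact for 8523 genes, by limma's test of the interaction, (double KD minus Hdac6 KD) minus (Tip60 KD minus control KD). The targeted gene Hdac6 was among them, with an interaction of 1.05 (adjusted p = 0.00141): its signal was lower by 0.44 upon Tip60 KD without the hairpin against Hdac6 (limma, adjusted p = 0.00163), and higher by 0.62 in the double KD than in the Hdac6 KD.

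Of the largest rises, Cidea had an interaction of 2.26 (adjusted p = 0.00113), and Ltb, Slc11a1 and Spink1 had interactions of -0.42, -0.45 and -0.55 (adjusted p = 0.0127, 0.0141 and 0.00675), that is a smaller rise where Hdac6 was depleted. Of the largest falls, Ccng1 had an interaction of 0.42 (adjusted p = 0.0296), a smaller fall where Hdac6 was depleted. Hmga2, Rab25, Purb, Hpdl and Timm8a1 differed further downward where Hdac6 was depleted, with interactions of -1.75, -0.63, -0.64, -0.81 and -0.37 (adjusted p = 0.00115, 0.00523, 0.00393, 0.00264 and 0.0129). The higher Hdac6 signal in the double KD moved with these values, and its part in them was not tested. Myc, chosen after its values were seen, had an interaction of -2.03 (adjusted p = 0.00115), a smaller rise where Hdac6 was depleted. No group held enough arrays for a test of single outlying samples.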

How the results depend on the processing

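Without the replicate block (the pairing by letter), 1828 genes were called and 3987 had an interaction, and on the 4 compared arrays without the block 0 passed limma's adjusted threshold (3129 at an unadjusted p under 0.05). A change of at least 2-fold was called for 153 genes. Leaving out 1 array at a time gave 1890 to 5865 calls and 5744 to 8838 interactions. With a compared array left out, the slide effect is estimated from the other groups and the lone array is assumed to vary like them. The other settings kept the number called within 1.5 times, from 3761 with no filter on dim probes to 5778 when floor values were left out, and median scaling moved the share of higher calls to 28.9% from 51.3%.

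Of 212 genes named, 186 were called, and all of these lost their call on the 4 compared arrays without the block. On all 8 arrays without the block, 63 lost it. With no filter on dim probes 24 lost it, with median scaling 15 and with the same background on every array 8. Calls were also lost on leaving out each compared array. All kept their direction in these settings. The mean of a gene's probes reversed 2 of the genes named, Lifr (0.20) and Atp5g1 (-0.40). The cause was not tested. Signal near background limits the dimmest genes: in the lowest 25% by level the median difference was 0 on letter A and 0.062 on letter B.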
